A study of Mus musculus with 96 samples.

Results

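The comparison described here is that of RAW 264.7 cells, a mouse macrophage-like cell line, given LPS together with 2-methyl-thio-ATP (2MA) and the same cells given LPS alone, after 2 h and 4 h. It draws on 24 of the 96 arrays of the series, chosen by the treatment and time in their titles. The LPS dose was 100 ng, for which no volume is stated, together with 100 pM of the LPS-binding protein, and the 2MA dose was 500 uM. A group held 6 arrays, from 3 numbered sets in 2 dye orders. On every 2-colour array the RNA of treated cells was set against RNA of untreated cells of the same time. A set value is the mean log2 ratio of treated to untreated RNA over both dye orders. Differences are LPS+2MA minus LPS on that scale, so 1 log2 unit is a 2-fold difference. The main test compares group means and does not match the sets. Matching by set number is used for differences of single sets and in an added fit with the set as a block. Groups with 2MA alone, and the 1 h groups, served for further comparisons. Whether the sets came from separate cultures is not stated, so the p-values cover only set-to-set spread, possibly technical. Nor is it stated whether treatments shared untreated RNA. RAW 264.7 is a transformed line, and all values are from bulk RNA, in which fewer cells of a kind and less RNA per cell cannot be told apart.

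LPS binds Toll-like receptor 4 on macrophages and, through NF-kB, MAP kinases and interferon regulatory factors, raises inflammatory cytokines and interferon beta. Extracellular ATP and its analogues act on P2 purinergic receptors: P2X receptors are cation channels opened by ATP, and many P2Y receptors couple to G proteins and release calcium from internal stores. Raised calcium activates the phosphatase calcineurin, which lets NFAT transcription factors enter the nucleus.

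Adding 2MA to LPS raised more genes than it lowered, and the largest differences were rises. Rcan1, a regulator of calcineurin, Il1a, which encodes the cytokine interleukin 1 alpha, Ifnb1, which encodes interferon beta, and Acp5, the tartrate-resistant acid phosphatase of osteoclasts and macrophages, led the named genes in the mean of both times, at 2.7-fold to 3.38-fold. A probe with no gene name here (probe_6463) differed more, by 1.99 ± 0.21. The falls were smaller, led among named genes by the small GTPase gene Rab20 at 1.61-fold. In the mean of 2 and 4 h, 114 of 11593 genes were called (limma, adjusted p under 0.05). That is a share of 0.983%, with 79 up (0.681%) and 35 down (0.302%). All 13 that differed by at least 2-fold were up. Of the 114, 104 had the same sign in 6 of 6 matched differences. The calls were made on the mean of these same differences, which favours 1 sign. The share over all genes was not counted, so the 104 are no separate evidence.

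Taken time by time, fewer genes passed. At 2 h, 11 genes were called (0.0949%), all 11 up (0.0949%) and 0 down (0%), while 556 had an unadjusted p under 0.05. At 4 h, 41 were called (0.354%), with 33 up (0.285%) and 8 down (0.069%). Same-numbered sets deviated from their group means together, so a fit with the set as a block was also made. It called 49 genes at 2 h (0.423%, 39 up and 10 down), 201 at 4 h (1.73%, 132 up and 69 down) and 346 in the mean (2.98%, 201 up and 145 down). Leaving out 1 set reduced the calls: without set 1, 2 or 3 they were 5, 2 and 6 at 2 h, 1, 3 and 10 at 4 h, and 23, 20 and 35 in the mean. Of the 30 genes named by size in the mean, 10 of 26, 10 of 29 and 13 of 26 that could be tested kept the call, and Acp5, Fbxo15 and Tslp kept it without any 1 of the sets. Under quantile normalisation the 1 gene called at 4 h was up. The 2 h differences of set 3 correlated over genes at -0.0327 and -0.022 with those of sets 1 and 2, while the 4 h sets correlated at 0.26 to 0.423 with each other.

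The arrays carried between 14379 and 14953 probes with a value of 16281 (median 14760.5). Precision is limited by how many arrays there were, and the median standard error of a difference was 0.159 at each time and 0.112 for the mean. Ratios hold no level, so markers can be read only as having a value and a difference. Of 9 macrophage markers 7 were tested, with mean differences of -0.18 to 0.13 and 0 called. Of the markers of T cells 6 were tested, of B cells 6, of neutrophils and mast cells 9, and of fibroblasts and epithelium 8. In each of these lists 0 were called, and the differences lay between -0.17 and 0.09.

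Promoters of 4 genes that rose are shown because their transcripts stand for the calcium, MAP kinase and cytokine genes described next, and because they held matches to the motifs searched (a choice made after the matches were seen). They are the 250 bases before a RefSeq start in GRCm38.p6, written 5′ to 3′ on the strand of the gene. Capitals mark matches, on either strand, to the cAMP response element TGACGTCA, its core TGACG (which also lies inside the full element), the AP-1 site TGANTCA, the NF-kB site GGGANTTTC, the interferon response element GAAANNGAA and the Egr site GCGTGGGCG. The Rcan1 window is that of the inner of 2 starts, at chr16:92400079-92400328, minus strand. The other windows lie at chr17:26508473-26508722 (Dusp1, minus strand), chr2:129309973-129310222 (Il1a, minus strand) and chr5:30012864-30013113 (Il6, plus strand).
Rcan1: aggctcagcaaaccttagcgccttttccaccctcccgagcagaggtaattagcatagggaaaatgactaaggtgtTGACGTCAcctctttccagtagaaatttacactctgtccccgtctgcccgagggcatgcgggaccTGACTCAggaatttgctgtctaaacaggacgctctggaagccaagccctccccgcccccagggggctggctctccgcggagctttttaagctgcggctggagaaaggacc
Dusp1: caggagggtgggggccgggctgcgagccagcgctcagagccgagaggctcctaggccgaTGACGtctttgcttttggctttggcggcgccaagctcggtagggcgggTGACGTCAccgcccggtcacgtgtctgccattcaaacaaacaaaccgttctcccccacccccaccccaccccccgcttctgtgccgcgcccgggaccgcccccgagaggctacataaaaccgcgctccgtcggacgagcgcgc
Il1a: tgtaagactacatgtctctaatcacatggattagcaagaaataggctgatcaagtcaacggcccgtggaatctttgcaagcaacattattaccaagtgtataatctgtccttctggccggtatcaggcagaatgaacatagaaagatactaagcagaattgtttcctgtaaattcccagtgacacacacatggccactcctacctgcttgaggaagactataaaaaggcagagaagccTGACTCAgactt
Il6: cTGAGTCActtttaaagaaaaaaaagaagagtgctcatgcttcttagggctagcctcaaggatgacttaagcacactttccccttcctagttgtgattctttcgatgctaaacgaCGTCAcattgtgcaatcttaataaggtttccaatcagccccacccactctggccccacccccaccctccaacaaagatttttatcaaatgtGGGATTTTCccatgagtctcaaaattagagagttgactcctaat
The Rcan1 and Dusp1 windows both held the full cAMP response element, and those of Rcan1, Il1a and Il6 an AP-1 match. The window of the outer Rcan1 start held no match to any of the letters searched. Windows of Acp5 and Ifnb1 were searched as well and are not shown. The Ifnb1 window held no match. Of the 3 Acp5 windows only that at chr9:22135747-22135996 held a match, to the interferon response element. Over all 7757 tested genes with a promoter in the table, 2.33% held the full element, 26.3% its core, 7.27% the AP-1 site, 1.13% the NF-kB site, 7.73% the interferon response element and 1.03% the Egr site. Of the 52 such genes called up in the mean, 7.69% held the full element, 34.6% its core, 21.2% the AP-1 site, 3.85% the NF-kB site, 13.5% the interferon response element and 0% the Egr site. Of the 19 called down, the shares were 0%, 31.6%, 5.26%, 5.26%, 26.3% and 0% in the same order. These are descriptions of letters, with no test. Some shares rest on few genes: of the 52 called up, 4 held the full element and 2 the NF-kB site. Of the 19 called down, 1 held the AP-1 site and 1 the NF-kB site.

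**Figure D1:**
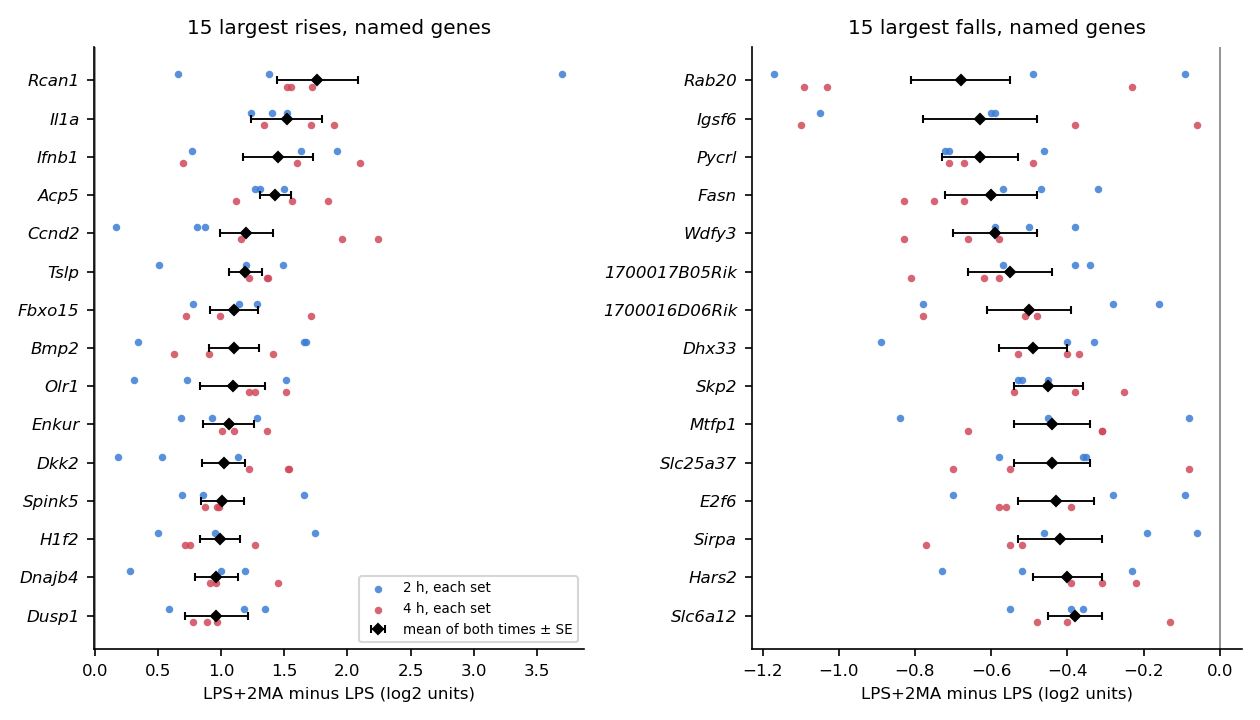
Matched differences, LPS+2MA minus LPS in log2 units on the x axis, for the 15 largest rises and the 15 largest falls among named genes that were called in the mean of 2 and 4 h with 1 sign in every set. Points are single sets at 2 h (blue) and 4 h (red), and diamonds are the mean of both times with its SE. All points of the rises lie above 0 and all points of the falls below 0, which the rule for naming genes required, and Rcan1 has the widest spread, from 0.66 to 3.70.

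Genes that respond to calcium and cAMP were the group with the largest single difference. Rcan1 is itself induced by calcineurin and NFAT and feeds back on calcineurin. With LPS alone at 2 h its set values were 2.02, 1.93 and -0.60, and with LPS+2MA they were 2.68, 3.31 and 3.10. At 4 h they were -0.05, -0.04 and 0.28 with LPS and 1.67, 1.48 and 1.83 with LPS+2MA. The groups did not overlap at either time, and set 3 with LPS at 2 h lay far below the other sets. Over all 11593 genes tested, the LPS and LPS+2MA sets did not overlap in 5.45% at 2 h and in 10.4% at 4 h. The 2 Rcan1 probes gave 1.75 and 1.76 in the mean. The mean difference was 1.76 ± 0.32 (SE, 3 sets at each time; limma adjusted p = 0.00202). Without set 3 it was 1.33 (adjusted p = 0.0531) and without set 2 it was 1.78 (adjusted p = 0.0686). Neither time alone was called (1.91 ± 0.46 at 2 h, adjusted p = 0.1; 1.60 ± 0.46 at 4 h, adjusted p = 0.143), while with the block the 2 h difference was (adjusted p = 0.0405).

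Nfatc1, an NFAT transcription factor that induces its own gene, rose at 2 h. Its set values at 2 h were 0.39, -0.03 and 0.09 with LPS and 1.00, 1.03 and 0.98 with LPS+2MA. The difference was 0.85 ± 0.16 (limma adjusted p = 0.0135), with 2 probes at 0.76 and 0.94. The call was lost without set 1, 2 or 3 (adjusted p = 0.166, 0.46 and 0.0877). At 4 h the values were -0.93, -0.91 and -0.35 with LPS and -0.87, -0.67 and -0.12 with LPS+2MA. Those groups overlapped, and the difference of 0.18 ± 0.16 was not called (adjusted p = 0.999). The change of the Nfatc1 difference from 2 to 4 h was itself not called (-0.67 ± 0.23, adjusted p = 1). Dusp1, a phosphatase that switches off MAP kinases, was already high with LPS, at 3.06, 2.60 and 3.70 at 2 h and 2.19, 2.02 and 2.24 at 4 h. With LPS+2MA it stood at 3.66, 3.95 and 4.88 at 2 h and at 2.97, 2.99 and 3.13 at 4 h. The Dusp1 groups overlapped at 2 h by 1 set and did not overlap at 4 h. The mean difference was 0.96 ± 0.25 (limma adjusted p = 0.0472), and the call was lost without any 1 of sets 1, 2 or 3 (adjusted p = 0.113, 0.518 and 0.0821).

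Of the 15 tested calcium, cAMP and NFAT responsive genes, 3 rose in the mean (Rcan1, Nfatc1 and Dusp1), 0 fell and 12 did not pass. The median of the list was 0.19, against 0.00 over all genes tested. With the block 5 rose, Nr4a1 (0.82) and Rgs2 (0.54) being added. Of the 10 osteoclast and cell fusion genes, Acp5 and Nfatc1 rose and the median was 0.08. For comparison with every list here, 0.681% of all genes tested were called up in the mean and 0.302% down. With the block 2.98% were called in either direction. Lists share members: Nfatc1 is in both of these, and Nr4a1, Dusp1 and Rgs2 each also count in another list below. The lists were chosen with earlier results of these data known, so their counts are not separate evidence.

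Acp5 had the smallest adjusted p of all named genes and differed at both times. Its set values were 0.93, 0.52 and 0.32 with LPS and 2.23, 1.79 and 1.82 with LPS+2MA at 2 h. At 4 h they were 1.16, 0.69 and 0.89 with LPS and 2.71, 2.54 and 2.00 with LPS+2MA. No set with LPS reached the lowest set with LPS+2MA at the same time. The difference was 1.36 ± 0.17 at 2 h (limma adjusted p = 4.82e-06), 1.51 ± 0.17 at 4 h (adjusted p = 6.97e-07) and 1.43 ± 0.12 in the mean (adjusted p = 1.61e-10). Acp5 kept its call at 2 h, at 4 h and in the mean without any 1 of the sets.

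Among early response transcription factors, 2 of 19 tested rose in the mean, 0 fell, and 15 lay above 0 with a list median of 0.41. Over all genes tested 0.681% were called up and the median was 0.00, while the share above 0 was not counted. Egr3, a zinc finger factor that NFAT and MAP kinases induce, stood at 0.93, 0.67 and 0.55 at 2 h with LPS and at 1.78, 2.09 and 2.53 with LPS+2MA. Its difference was 1.42 ± 0.30 at 2 h (limma adjusted p = 0.0436), with no overlap of the groups, and the call was lost without set 2 or 3 (adjusted p = 0.46 and 0.643). At 4 h Egr3 stood at -0.17, 0.16 and -0.14 with LPS and 0.30, 0.20 and 0.44 with LPS+2MA, a difference of 0.36 ± 0.30 that was not called. Jund, an AP-1 subunit, rose by 0.70 ± 0.15 in the mean (adjusted p = 0.0123; 0.0762, 0.14 and 0.145 without set 1, 2 or 3). With the block Klf6 (0.50) and the orphan nuclear receptor gene Nr4a1 (0.82) were added. Fos, the partner of Jun proteins in AP-1, differed by -0.05 ± 0.14 and Atf3, a stress-induced factor, by 0.42 ± 0.14, and neither was called.

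**Figure D2:**
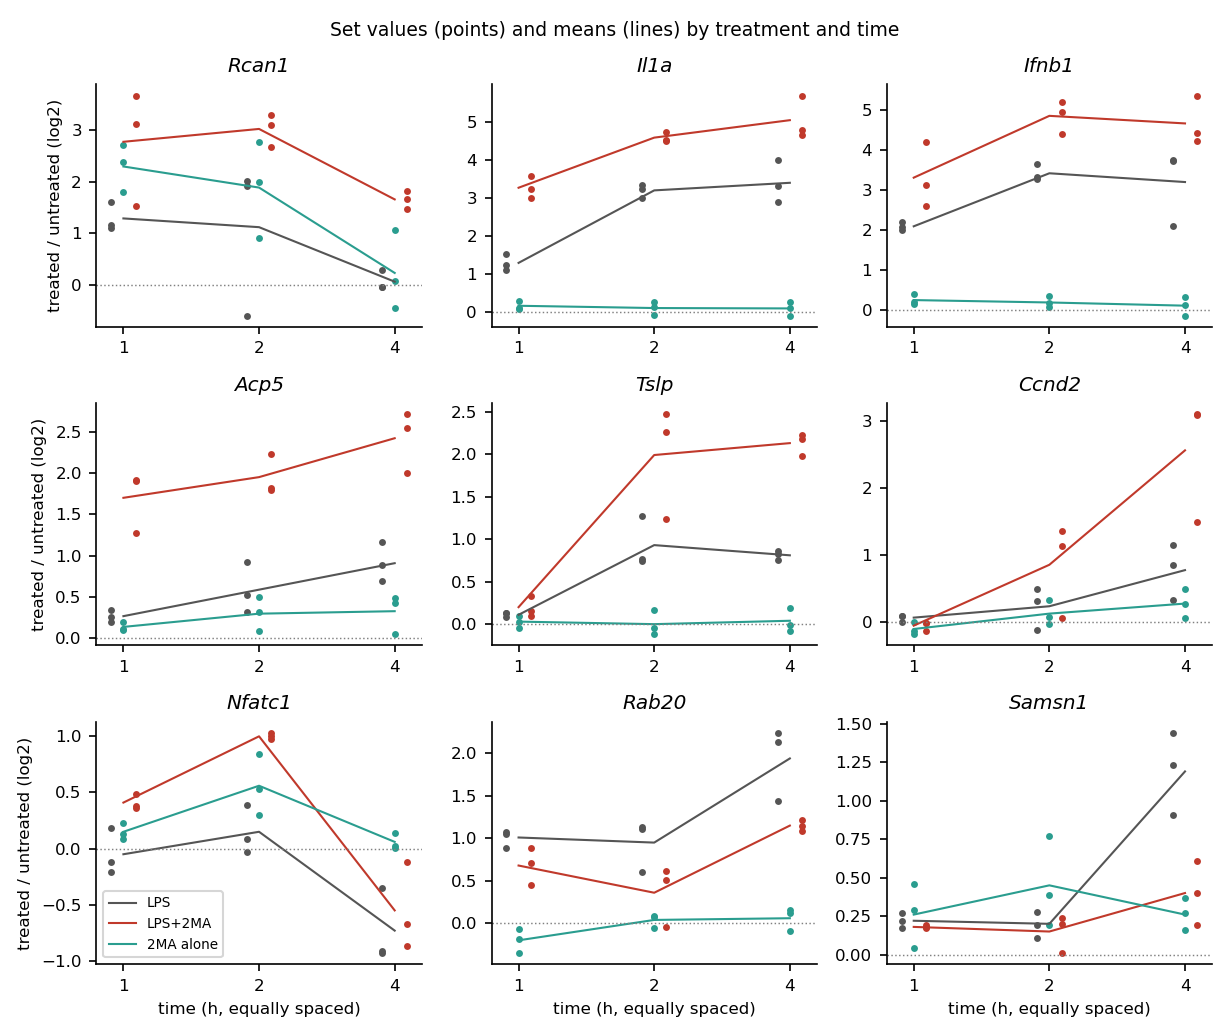
Treated over untreated log2 ratio on the y axis against time (1, 2 and 4 h, equally spaced) for 9 genes. Points are set values and lines are means for LPS (grey), LPS+2MA (red) and 2MA alone (green). For Acp5 the LPS+2MA sets lie above the LPS sets from 1 h, for Tslp from 2 h apart from 1 low set, and for Samsn1 at 4 h the LPS+2MA sets lie between 0.19 and 0.61 and the LPS sets between 0.91 and 1.44.

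Il1a, already high with LPS, stood higher with 2MA. It had set values of 3.34, 3.24 and 3.01 at 2 h with LPS and 4.74, 4.49 and 4.53 with LPS+2MA. At 4 h it had 2.90, 3.32 and 3.99 with LPS and 4.79, 4.66 and 5.70 with LPS+2MA. The groups did not overlap at either time. The mean difference was 1.52 ± 0.28, or 2.86-fold (limma adjusted p = 0.00226), while neither time alone was called (adjusted p = 0.317 and 0.0526). With the block the 4 h difference of 1.65 was called (adjusted p = 0.0062). Without set 1 the mean was 1.45 (adjusted p = 0.2).

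Ifnb1 also stood higher with 2MA. At 2 h it stood at 3.64, 3.33 and 3.28 with LPS and at 4.41, 4.96 and 5.20 with LPS+2MA. At 4 h it stood at 3.73, 2.11 and 3.76 with LPS and at 4.43, 4.22 and 5.37 with LPS+2MA. The groups did not overlap, and set 2 with LPS at 4 h was low. The mean difference was 1.45 ± 0.28, or 2.74-fold (limma adjusted p = 0.00368). Neither time alone was called (adjusted p = 0.262 and 0.116), but both were with the block (adjusted p = 0.0395 and 0.0154). Missing values kept Ifnb1 out of the fits with 1 set left out. Il6, which encodes interleukin 6, was 4.39, 4.58 and 4.54 at 4 h with LPS and 5.24, 5.43 and 5.82 with LPS+2MA. At 2 h its groups overlapped, at 1.52, 2.27 and 2.23 against 2.75, 2.56 and 2.23. Il6 rose in the mean by 0.75 ± 0.19 (limma adjusted p = 0.0314), a call lost without set 1 or 2 (adjusted p = 0.528 and 0.218).

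Of 15 pro-inflammatory cytokine genes tested, Il1a and Il6 rose in the mean, 0 fell, and the list median was 0.16. Tnf, which encodes tumour necrosis factor, differed by 0.26 ± 0.31, and Il1b, which encodes interleukin 1 beta, by 0.42 ± 0.23, and neither was called. The block added Il18 (0.53). Tslp, an epithelial-type cytokine that acts on dendritic cells, was outside that list and rose at both times. It stood at 0.77, 1.27 and 0.74 with LPS and at 2.26, 2.47 and 1.24 with LPS+2MA at 2 h, where 1 set with LPS+2MA lay just below the highest LPS set. At 4 h it stood at 0.86, 0.82 and 0.76 against 2.23, 2.18 and 1.98, with no overlap. The differences were 1.06 ± 0.18 (limma adjusted p = 0.00285) and 1.32 ± 0.18 (adjusted p = 7.03e-05). Without set 1 neither was called (adjusted p = 0.775 and 0.206), nor was the 2 h difference without set 2 (adjusted p = 0.248), while the mean of 1.19 ± 0.13 kept its call without any 1 of the sets.

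Of 16 tested genes for chemokines and chemokine receptors, Ccl22, which attracts CCR4-bearing T cells, was called, at 0.79 ± 0.16 (limma adjusted p = 0.00523). Ccl2, Ccl3, Cxcl2 and Cxcl10 were on the list but not tested. For Ccl22 the probes differed. Its 3 probes gave 1.18, 1.17 and 0.29, and the call was lost without set 1 (adjusted p = 0.355), while without set 2 the difference was 1.25. Leaving out a set also changes which probes pass the filter, so the latter value may not rest on all 3 probes. Of 19 type I interferon targets, Ifnb1 itself was called, and the list median was 0.11. Of 7 interferon-inducible GTPase genes 0 were called, with differences between 0.07 and 0.36. Il10, an anti-inflammatory cytokine gene, differed by -0.54 ± 0.18 and was not called (adjusted p = 0.234), but was called with the block (adjusted p = 0.0414). Within the regulatory genes, Cish, which damps cytokine signalling through STAT5, rose at 4 h from 2.08, 1.58 and 2.10 to 3.15, 2.62 and 2.98. That difference was 1.00 ± 0.17 (limma adjusted p = 0.00247). Stat5a, the transcription factor upstream of Cish, rose by 1.01 ± 0.22 at 4 h (adjusted p = 0.0255), from 1.20, 0.76 and 1.70 to 2.02, 1.99 and 2.67. Cish lost its 4 h call without set 1 (adjusted p = 0.339), and Stat5a without set 1, 2 or 3 (adjusted p = 0.451, 0.254 and 0.0949). Cd80, a costimulator of T cells, rose by 0.67 ± 0.17 in the mean (adjusted p = 0.0387; 0.206, 0.246 and 0.164 without set 1, 2 or 3).

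No gene for the receptors of either ligand was called. Of 20 tested genes for Toll-like receptor 4 and its adaptors 0 were called, between -0.18 (Cd14) and 0.22 (Irf5), with a median of -0.04. Tlr4 itself differed by 0.09 ± 0.14. Of 15 purinergic receptor and ectoenzyme genes 0 were called, between -0.36 and 0.19. P2ry2, a receptor for ATP and UTP, was the lowest at -0.36 ± 0.13 and was called with the block (adjusted p = 0.0437). P2rx7, an ATP-gated channel, differed by -0.10 ± 0.10. Of 17 NF-kB family and feedback genes 0 were called, although 16 lay above 0 with a median of 0.26, against 0.00 over all genes tested. With the block Nfkb2 (0.50) and Nfkbie (0.61) were called. Of 14 MAP kinase and G protein feedback genes Dusp1 and Gem rose, Gem, a small GTPase that inhibits calcium channels, by 0.75 ± 0.20 (limma adjusted p = 0.0462; 0.41 and 0.543 without set 2 or 3). The block added Rgs2 (0.54) and Rgs16 (0.78), regulators of G protein signalling.

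**Figure D3:**
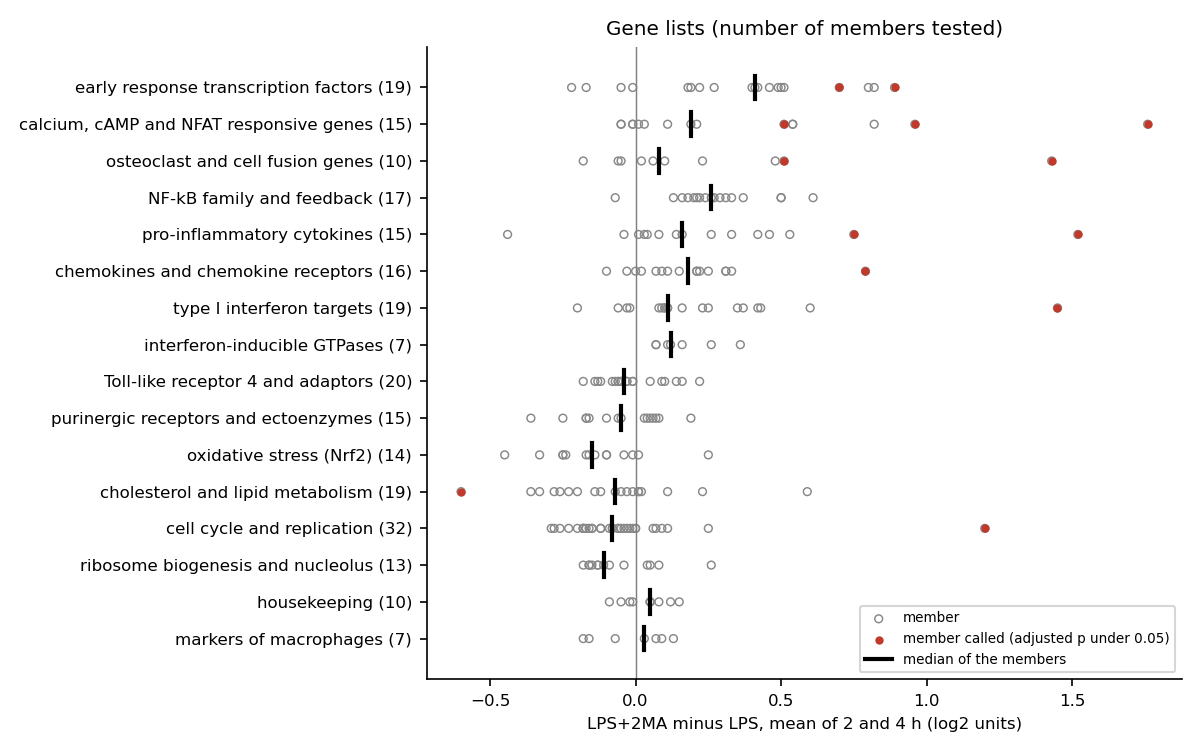
Mean difference of 2 and 4 h, LPS+2MA minus LPS in log2 units on the x axis, for the members of 16 gene lists. Circles are single members, filled red where called, and vertical bars are list medians. Members of the NF-kB list lie above 0 apart from 1, at a median of 0.26, and members of the oxidative stress list lie mostly below 0, at a median of -0.15.

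Ccnd2, which encodes cyclin D2 of the G1 phase, had the largest difference of all named genes at 4 h. Its set values at 4 h were 1.14, 0.85 and 0.33 with LPS and 3.10, 3.09 and 1.49 with LPS+2MA. The difference was 1.79 ± 0.30, or 3.45-fold (limma adjusted p = 0.0023). The groups did not overlap, though set 3 was lower than sets 1 and 2 in both. At 2 h Ccnd2 stood at 0.49, 0.31 and -0.12 with LPS and 1.36, 1.13 and 0.05 with LPS+2MA, which overlapped, and 0.62 ± 0.30 was not called. The 2 Ccnd2 probes gave 2.08 and 1.50 at 4 h. Without set 1 or set 2 the call at 4 h was lost (adjusted p = 0.239 and 0.351), and without set 3 the difference was 2.1 (adjusted p = 1.82e-07).

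Of 32 cell cycle and replication genes Ccnd2 alone was called up and 0 down, and 7 lay above 0 with a median of -0.08. The block added Mcm2 (-0.29), part of the replicative helicase, and E2f1 (-0.26), both lower. Skp2, which marks cell cycle inhibitors for degradation, fell by 0.45 on the log2 scale in the mean (limma adjusted p = 0.00506), and E2f6, a repressive E2F factor, fell by 0.43 (adjusted p = 0.0117). Skp2 stood at -0.16, -0.40 and -0.26 with LPS at 2 h and at -0.68, -0.93 and -0.71 with LPS+2MA, with no overlap. Both lost the call without set 1, 2 or 3 (adjusted p = 0.176, 0.107 and 0.1 for Skp2, and 0.281, 0.107 and 0.164 for E2f6).

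Outside the lists, genes named by the size of their rise included several at 4 h. Tnc, the matrix glycoprotein tenascin C, stood at 0.60, 1.48 and 1.19 with LPS and 1.55, 3.09 and 3.25 with LPS+2MA, a difference of 1.54 ± 0.33 (limma adjusted p = 0.0255). The lowest LPS+2MA set was just above the highest LPS set. Dkk2, a secreted modulator of Wnt signalling, rose by 1.43 ± 0.23 at 4 h (adjusted p = 0.00169), from 0.33, -0.34 and 0.10 to 1.87, 1.19 and 1.33. Timp1, an inhibitor of matrix metalloproteinases, rose by 1.01 ± 0.19 at 4 h (adjusted p = 0.00799), and without set 3 the difference was 0.63. In the mean, Bmp2, a growth factor of the TGF-beta family, rose by 1.10 ± 0.20 (adjusted p = 0.00157) and Olr1, a scavenger receptor for oxidised lipoprotein, by 1.09 ± 0.26 (adjusted p = 0.0198). Srgn, the proteoglycan serglycin of storage granules, rose by 0.94 ± 0.18 at 2 h (adjusted p = 0.00891). Tnc and Timp1 lost the 4 h call without set 1, 2 or 3 (adjusted p = 0.17 to 0.79), Dkk2 without set 1 or 2 (0.174 and 0.124), Srgn its 2 h call without set 1 or 2 (0.174 and 0.38), Bmp2 without set 3 (0.117) and Olr1 without set 1, 2 or 3 (0.367, 0.0541 and 0.112).

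Other rises in the mean were Fbxo15 (1.10), Enkur (1.06), Spink5, a serine protease inhibitor (1.01), the linker histone H1f2 (0.99) and the heat shock cochaperone Dnajb4 (0.96). Popdc2 rose at 4 h (1.28), and Dbi (0.64), Serpind1 (0.62) and H2-Q5 (0.70) rose at 2 h. Dbi lost its 2 h call without set 1, 2 or 3 (limma adjusted p = 0.182 to 0.999), Serpind1 without set 3 (0.643) and H2-Q5 without set 2 (0.248). Popdc2 lost its 4 h call without set 1. Serpind1 could be tested only without set 3, and Popdc2 only without set 1. In the mean, Enkur lost its call without set 1 (0.37) and Spink5 without set 2 (0.107). H1f2 lost it without set 3 (0.0707), and Dnajb4 without set 2 or 3 (0.107 and 0.0977). H2-Q5 is uncertain, since 2 of its 4 probes rose by 1.07 and 1.32 in the mean while the others stood at 0.20 and -0.02, and class I MHC genes are close in sequence. The stress and death genes Nupr1 (0.81 ± 0.20, limma adjusted p = 0.0302) and Pmaip1 (0.71 ± 0.18, adjusted p = 0.0374) also rose, as did Ass1, which makes the arginine precursor argininosuccinate (0.39 ± 0.10, adjusted p = 0.0431), and Anxa2, a calcium-dependent membrane binder (0.41 ± 0.09, adjusted p = 0.0107). Nupr1 lost its call without set 1 or 2 (adjusted p = 0.515 and 0.366), and Pmaip1, Ass1 and Anxa2 without set 1, 2 or 3 (adjusted p = 0.113 to 0.722). Without set 3 the Pmaip1 difference was 0.43. The block added Vim (0.40), the intermediate filament vimentin, beside Anxa2 in the actin and adhesion list. Ass1 was the 1 gene called of 24 effector enzyme genes, to which the block added Cp (0.53), the copper oxidase ceruloplasmin, and Nos2, the inducible nitric oxide synthase, differed by -0.09 ± 0.14 and was not called.

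Rab20, a small GTPase of endosomes and phagosomes that LPS raised, had the largest fall of the named genes in the mean. It stood at 2.24, 2.13 and 1.44 at 4 h with LPS and at 1.14, 1.09 and 1.22 with LPS+2MA. At 2 h it stood at 1.11, 1.13 and 0.60 against 0.62, -0.04 and 0.51. The groups did not overlap at 4 h and overlapped at 2 h by 1 set. The mean difference was -0.68 ± 0.13 (limma adjusted p = 0.00202), and without set 1 or set 2 the call was lost (adjusted p = 0.292 and 0.263). Fasn, the fatty acid synthase, stood at -0.70, -0.44 and -0.31 at 4 h with LPS and at -1.38, -1.27 and -1.06 with LPS+2MA, a difference of -0.75 ± 0.17 with no overlap (adjusted p = 0.0281; 0.31, 0.406 and 0.22 without set 1, 2 or 3). Samsn1, an adaptor of haematopoietic cells, was raised by LPS at 4 h to 1.23, 1.44 and 0.91 but stood at 0.61, 0.40 and 0.19 with LPS+2MA, a difference of -0.79 ± 0.15 (adjusted p = 0.00475; 0.206 and 0.351 without set 1 or 2).

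Further falls at 4 h were Wdfy3, an adaptor of selective autophagy (-0.69), Pycrl, a pyrroline carboxylate reductase (-0.63), the alpha tubulin gene Tuba4a (-0.58) and 1700017B05Rik (-0.67). In the mean, Igsf6 (-0.63), Dhx33, an RNA helicase (-0.49), 1700016D06Rik (-0.50), Mtfp1, a mitochondrial fission protein (-0.44), Slc25a37, which carries iron into mitochondria (-0.44), the inhibitory receptor gene Sirpa (-0.42), Hars2, the mitochondrial histidyl-tRNA synthetase (-0.40), and Slc6a12, a transporter of betaine and GABA (-0.38), also fell. Mtfp1 lost its call without set 1, 2 or 3 (adjusted p = 0.0638, 0.127 and 0.675), and stood at -0.29 without set 3. At 4 h Wdfy3, Tuba4a and 1700017B05Rik lost the call without set 1, 2 or 3 (limma adjusted p = 0.109 to 0.83). In the mean, Slc25a37 and Sirpa lost it likewise (0.0619 to 0.701). Igsf6 and Slc6a12 lost it without set 1 or 2 (0.0721 to 0.502), and 1700016D06Rik without set 2 or 3 (0.123 and 0.449). Without set 2, Pycrl lost its 4 h call (0.124) and Hars2 its call in the mean (0.111), while Dhx33 kept its call. Pycrl, Hars2 and Dhx33 could be tested only without set 2. The LPS value was above 0 at 4 h in 12 of the 35 genes that fell, and in 61 of the 79 that rose. The same share over all genes tested was not counted, so no link with the LPS response can be read from these counts.

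Of 19 cholesterol and lipid genes Fasn alone fell and 0 rose, with a median of -0.07. With the block Idi1 (-0.28) and Sc5d (-0.36), both of sterol synthesis, were lower and Lpl (0.59), the lipoprotein lipase, was higher. Of 14 oxidative stress (Nrf2) genes 0 were called, 2 lay above 0 and the median was -0.15. The block called Hmox1 (-0.45), the haem oxygenase, and Gclc (-0.33), of glutathione synthesis, down. In the lists for heat shock (8 tested), glycolysis and hypoxia (14), ribosome biogenesis (13), mitochondrial respiration (12), MHC and antigen processing (16), transcripts lowered by LPS (16) and housekeeping (10), 0 were called, and their medians lay between -0.11 and 0.12. In these lists the block called Pfkfb3 (-0.46), a regulator of glycolysis, and Id1 (-0.39), an inhibitor of helix-loop-helix factors, down. The 2 Id1 probes disagreed, at -0.76 and -0.03 in the mean and -1.13 and 0.03 at 4 h. Although listed as lowered by LPS, Id1 was above 0 on 6 of 6 LPS arrays at each time. The macrophage surface and lysosome list (27 tested) held 1 rise, Cd80, and 1 fall, Sirpa. The block added Clec7a (0.61), the beta-glucan receptor, up and Ctsb (-0.24), a lysosomal protease, down.

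**Figure D4:**
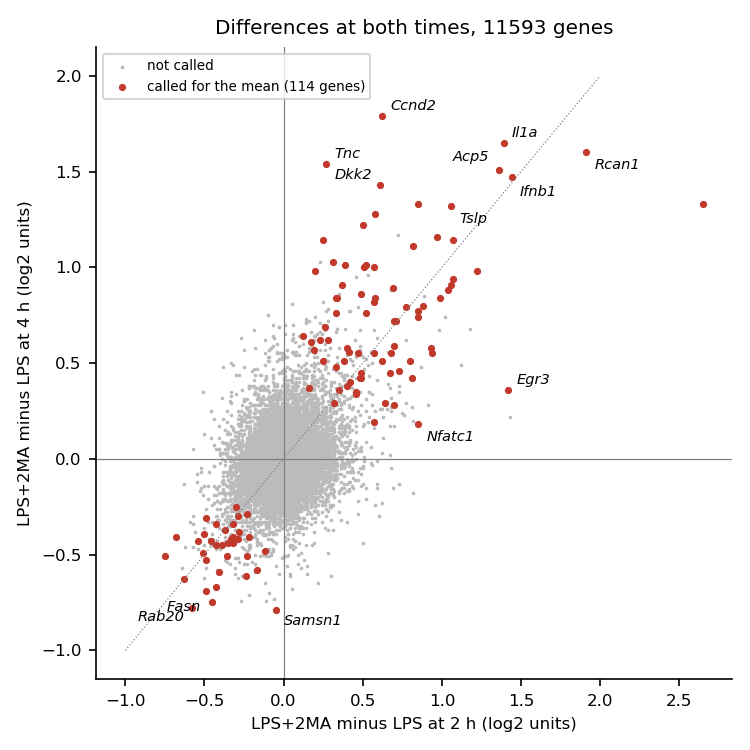
Difference LPS+2MA minus LPS at 2 h (x axis) against that at 4 h (y axis), both in log2 units, for 11593 genes. Red points are the 114 genes called in the mean, the dotted line marks equal differences, and the unlabelled point farthest to the right is a probe with no gene name here, at 2.65 and 1.33. Ccnd2, Tnc and Dkk2 lie above the line and Egr3 and Nfatc1 below it.

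The differences at 2 h and 4 h share no arrays, and over all 11593 genes they correlated at 0.362 (Pearson r over genes, which are not independent replicates). Called at both times were 6 genes, 54.5% of the 2 h calls and 14.6% of the 4 h calls. All 11 of the 2 h calls lay above 0 at 4 h, and 37 of the 41 genes called at 4 h had the same sign at 2 h. The test of the change between times called 0 genes (0%) in either direction, with 278 at an unadjusted p under 0.05, and the block also called 0. For Ccnd2 the 4 h difference exceeded the 2 h difference by 1.17 ± 0.43 (unadjusted p = 0.00965, adjusted p = 1), and for Samsn1 the change was -0.75 ± 0.21 (unadjusted p = 0.000908, adjusted p = 1). A call at 1 time and not at the other thus does not show that a gene differed between the times.

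Against 1 h, 1 gene was called (0.00863%). Ccl7, a monocyte chemokine gene, stood at 1 h at 1.08, 1.05 and 1.04 with LPS and 3.22, 2.67 and 2.86 with LPS+2MA. At 2 h it stood at 2.81, 3.05 and 2.81 with LPS and 3.30, 3.31 and 3.15 with LPS+2MA. Its mean difference at 2 and 4 h was lower than that at 1 h by 1.55 on the log2 scale (a value of -1.55 ± 0.27, limma adjusted p = 0.0167). The call was lost without set 1, 2 or 3 (adjusted p = 0.0827, 0.274 and 0.537). The 3 Ccl7 probes disagreed, and the least changed gave 0.05 for this comparison. With the block 4 genes were called (0.0345%). They included Ccnd2, 1.32 higher at 2 and 4 h than at 1 h (adjusted p = 0.00871), and Tslp, 1.11 higher (adjusted p = 0.00871).

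The joint response was also set against the sum of the responses to LPS alone and to 2MA alone, each from 3 sets. Before the sign was turned, the 2 dye orders of 2MA-alone sets correlated over probes at -0.166, 0.236 and 0.183 at 2 h. At 4 h they correlated at -0.099, 0.396 and -0.248. With LPS or LPS+2MA at these times the values lay between -0.74 and -0.312. A response that follows the treated RNA gives a negative value, so the dye orders of 2MA alone agreed less well on the response. At 2 h 2 genes departed from the sum (0.0173%) and at 4 h 7 did (0.0604%). With the block these were 13 (0.112%) and 34 (0.293%). Without set 1, 2 or 3 the counts were 0, 1 and 3 at 2 h and 1, 0 and 8 at 4 h. Of the 2 h departures 50% and of the 4 h departures 28.6% lay above the sum, against 4% of 25 and 2% of 50 under quantile normalisation, and 66.7% of 3 and 33.3% of 6 after centring on the median of nonzero values. At 4 h the share above the sum was 50% of 34 with the block and 76.5% of 51 on arrays with treated RNA in Cy5, so which side of the sum held more genes differed between settings. Acp5 exceeded the sum at both times. With 2MA alone it stood at 0.50, 0.09 and 0.32 at 2 h and 0.49, 0.05 and 0.43 at 4 h, and the excess was 1.06 ± 0.21 (limma adjusted p = 0.0486) and 1.18 ± 0.21 (adjusted p = 0.00299). Tslp, at 0.19, -0.01 and -0.08 with 2MA alone at 4 h, exceeded the sum by 1.28 ± 0.22 (adjusted p = 0.00299). Acp5 lost its call against the sum at 2 h without set 1, 2 or 3 (adjusted p = 0.15, 0.863 and 0.268), and at 4 h both genes did without set 1 or 2.

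The other genes that departed from the sum stood below it. Ccl7 at 2 h was at 3.00, 1.50 and 1.91 with 2MA alone, and the joint response lay 1.77 below the sum (-1.77 ± 0.27, limma adjusted p = 0.00121). Its least changed probe gave 0.08, and without set 1 or 3 the call was lost (adjusted p = 0.0961 and 0.152). At 4 h Tmem98 stood at 1.19, 0.95 and 0.68 with 2MA alone, at 1.24, 0.77 and 0.52 with LPS and at 0.79, 0.20 and 0.22 with both, which gave -1.38 ± 0.21 (adjusted p = 0.000518). The joint sets of Tmem98 overlapped the LPS sets, and its difference from LPS was not called. Odc1, the rate-limiting enzyme of polyamine synthesis, stood at 2.81, 2.78 and 2.88 with LPS and 2.51, 2.60 and 2.98 with LPS+2MA, with 1.75, 1.06 and 0.70 for 2MA alone (-1.30 ± 0.25, adjusted p = 0.0144). Stap1, a signalling adaptor (-1.18 ± 0.18, adjusted p = 0.000518), Samsn1 (-1.06 ± 0.18, adjusted p = 0.00299) and Tmem189 (-0.79 ± 0.16, adjusted p = 0.0457) were the others. Without set 2 none of Tmem98, Stap1, Samsn1 and Tmem189 was called (adjusted p = 0.323 to 0.635), and without set 1 Stap1 and Samsn1 were not (adjusted p = 1 and 0.145). Tmem189 could be tested only without set 2, and Odc1 only without set 3, where it kept its call.

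For Il1a and Ifnb1 the responses to 2MA alone were small, with means of 0.10 and 0.18 at 2 h and 0.09 and 0.10 at 4 h. Their joint responses lay above the sum by 1.29 ± 0.49 and 1.25 ± 0.49 at 2 h and by 1.56 ± 0.49 and 1.37 ± 0.49 at 4 h, and none of these 4 values was called (adjusted p = 1, 1, 0.492 and 0.8). Rcan1 responded to 2MA alone at 2 h, with 2.77, 0.91 and 2.00, and its joint response differed from the sum by 0.02 ± 0.56. That value includes the low LPS set 3 (-0.60). At 4 h Rcan1 had 1.07, 0.08 and -0.45 with 2MA alone. Its joint response then lay 1.36 above the sum, which was not called. Egr3 responded to 2MA alone at 2 h with 2.91, 0.96 and 1.32, which overlapped its LPS+2MA sets. Nfatc1 had 0.84, 0.30 and 0.53 with 2MA alone at 2 h, below every LPS+2MA set. Of the 79 genes called up in the mean, 20 had a response of at least 0.5 to 2MA alone at 2 h and 11 at 4 h. For all genes tested this share was not counted, so the counts cannot show a preference for genes that respond to 2MA.

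**Figure D5:**
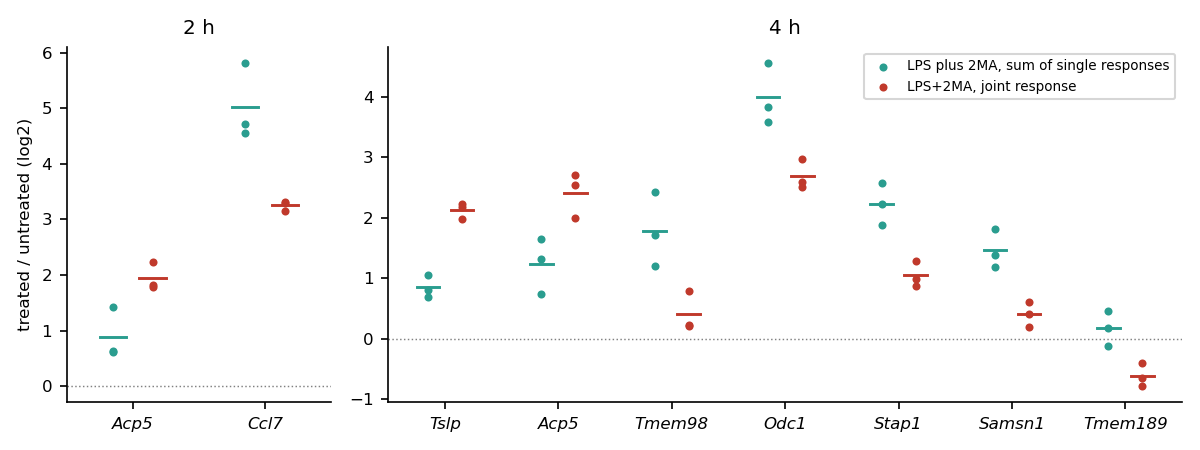
Treated over untreated log2 ratio on the y axis for the genes whose joint response departed from the sum of single responses at 2 h (left) and 4 h (right). Points are sets and bars their means, green for the sum of the LPS and 2MA values of the same set number and red for LPS+2MA. The red points of Acp5 and Tslp lie above the green ones, and those of the other 6 genes lie below.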

How the data were processed

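The deposited values are log2 ratios of Cy5 to Cy3, 1 column per array, read as such from their range and the channel labels. Methods of image analysis, background correction and normalisation were not given in the sources used here. Per the labels, each array set treated against untreated RNA. The values the authors deposited have a median of exactly 0 on each of the 24 arrays, so how they were centred is unknown, and the largest, 6.643856, is log2 of 100. Values of exactly 0 were read as missing, the sign was turned where treated RNA was in Cy3, and both dye orders were averaged per set (both needed). A probe needed at least 2 of 3 sets in every group of the series: 13698 probes were kept and 2583 left out. Probes of 1 gene were averaged, which gave 9755 named genes and 1838 unnamed probes. Names come from the platform annotation. The model (limma 3.58.1, R 4.3.3) had 1 mean per group over all 48 set values of 16 groups, with 32 residual degrees of freedom, two-sided tests and Benjamini-Hochberg adjustment over all genes per comparison. It was tested on simulated data with independent noise for each set value, which do not cover sets that deviate together. A fit with the set within time as a block was added, because deviations of same-numbered sets correlated above 0.1 in each pair of LPS+2MA and LPS (0.15 to 0.505 at 2 h, 0.376 to 0.73 at 4 h). Members, gene lists and tests were chosen with earlier results of these data known. Genes are named by rule: the 15 largest rises and 15 largest falls in the mean, 10 of each at each time and 5 of each in the other comparisons, with the same sign in every set, plus list members. Figures used matplotlib 3.10.9 in Python 3.11.15. Promoter sequences are RefSeq's, GRCm38.p6.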

Additional observations from a re-analysis of the deposited data

Results flagged for a closer look

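Genes whose difference from LPS depended on the time or on whether LPS was present, by the test of that dependence itself, are given here as values. Acp5 stood 1.06 above the sum of the single responses at 2 h and 1.18 above it at 4 h, and Tslp 1.28 above it at 4 h. Ccl7 stood at -1.77 against the sum at 2 h, and its mean difference at 2 and 4 h was -1.55 against that at 1 h. At 4 h the values against the sum were -1.38 for Tmem98, -1.30 for Odc1, -1.18 for Stap1, -1.06 for Samsn1 and -0.79 for Tmem189. Each had an adjusted p under 0.05 in limma, and groups of 3 sets were not tested for outliers.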

How the results depend on the processing

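The counts of called genes moved with the error term, the sets used and the normalisation. For the comparisons at 2 h, at 4 h and in the mean, against 11, 41 and 114 genes, the replicate block gave 49, 201 and 346, and arrays as the unit with a dye term and the set as a random block gave 50, 115 and 255. Fits on only the groups of the contrast gave 2, 3 and 16, quantile normalisation 2, 1 and 15, arrays with treated RNA in Cy5 gave 4, 22 and 34, and those in Cy3 gave 4, 5 and 48. Every probe by itself gave 7 at 2 h. Leaving out 1 replicate gave 2 to 6, 1 to 10 and 20 to 35 genes, and at 2 h the replicate block without replicate 3, chosen after seeing the data, gave 21. For the joint response against the sum at 2 h and 4 h (2 and 7 genes), the block gave 13 and 34, arrays as the unit 21 and 42, quantile normalisation 25 and 50, every probe by itself 4 and 13, and only the groups of the contrast 0 and 1. Cy5 arrays gave 0 and 51, Cy3 arrays 5 at 2 h, no filter 1 at 2 h, 1 dye order per set 1 at 2 h, and leaving out 1 replicate 0 to 3 and 0 to 8. Under quantile normalisation 24 of the 25 and 49 of the 50 lay below the sum, while of the 51 from Cy5 arrays 39 lay above it. Against 1 h (1 gene), zeros kept as 0 gave 2, no filter 2, every probe by itself 2, the block 4, arrays as the unit 5, quantile normalisation 0, Cy5 arrays 0, Cy3 arrays 0, and leaving out 1 replicate 0 to 2. The change from 2 to 4 h gave 0 under every alternative run. The cause of these shifts was not tested, except that leaving out a set, a dye order or the other groups leaves fewer values. Of 1172 values of 80 named results under the alternatives, 763 kept the call, 407 kept the direction but not the call and 2 reversed, both Ccl7 taken by its least changed probe (0.05 against 1 h and 0.08 against the sum). Acp5, Fbxo15 and Tslp kept their call in the mean without any 1 of the sets, out of 30 genes named there. Centring on the median of nonzero values changed no direction. Signal over background was not used here, so the precision of dim probes is unknown.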

Other observations

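Genes with a value in 1 dye order only for some sets were outside the main test, and entered when such sets were kept, an alternative chosen after seeing the data. Of these, Il33, which encodes an alarmin cytokine of the interleukin 1 family, had set values of 0.52, 0.38 and 0.46 at 4 h with LPS and 3.33, 2.74 and 2.04 with LPS+2MA. The groups did not overlap, and the difference was 2.25 ± 0.30 (limma adjusted p = 5.01e-05), larger than that of any named gene in the main test at 4 h. Of the 6 LPS arrays at 4 h, 5 had a value for Il33. At 2 h Il33 stood at -0.00, 0.40 and 0.28 with LPS and 1.42, 1.54 and 0.93 with LPS+2MA. That difference of 1.07 ± 0.30 was not called (limma adjusted p = 0.278). Against the sum of the single responses at 4 h Il33 stood 2.58 higher (adjusted p = 0.00037), with 2MA alone at -0.12, -0.78 and -0.08. Cxcl11, an interferon-induced chemokine gene, rose by 1.11 ± 0.19 in the mean of both times (adjusted p = 0.000924), and Emp1, a membrane protein gene, by 1.01 ± 0.16 (adjusted p = 0.000421). A probe with no gene name here had the largest difference of all at 2 h, 2.65 ± 0.30 (adjusted p = 9.21e-07), and 1.33 ± 0.30 at 4 h (adjusted p = 0.0281).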
